A study of Mus musculus with 2 samples.

Results

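The collagen and laminin genes encode the main structural chains of the extracellular matrix, and they were examined here across the cell types of the mouse testis at PD7. All genes whose symbol reads Col, a number, the letter a and a number, or Lama, Lamb or Lamc and a number, were taken from the gene list of the count tables. The rule gave 55 of 32285 genes, of which 44 were collagens and 11 were laminins. A symbol with further letters, such as that of Col4a3bp, did not match. The rule used names alone and no measured value.

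Testes of 1 control mouse and 1 *Brca1* vKO mouse were analysed by droplet single-cell RNA sequencing, in which every captured RNA molecule receives a unique molecular identifier (UMI). *Brca1* vKO mice carry 1 floxed and 1 null *Brca1* allele (*Brca1* f/-) with *Vasa*-Cre, whose expression is limited to the germ line from fetal life on, so the floxed allele is deleted in germ cells, while the somatic cells keep it beside the null allele. The controls were littermates without a stated genotype, both mice were at PD7, and each genotype had 1 library. The cells had been released with collagenase IV and TrypLE Express, and more *Brca1* vKO cells than control cells had been loaded, so the data describe RNA in released cells, and the matrix itself was not measured.

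Collagens are trimers of alpha chains. The fibrillar collagens form the fibres of the interstitial space, whereas type IV collagen forms the sheet of basement membranes together with the laminins, which are trimers of an alpha, a beta and a gamma chain. In the testis, the basement membrane of the seminiferous tubule lies between the Sertoli cells inside and the flat peritubular myoid cells outside, and spermatogonia rest on it. Blood vessels between the tubules have basement membranes of their own, laid down by endothelial cells and pericytes.

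After filtering, 5077 control cells and 8712 *Brca1* vKO cells were retained, with medians of 16917 and 12971 UMIs per cell. The 2 libraries shared 16 retained barcodes. Cells were clustered without the 55 genes, and clusters were named from 8 markers per class, which hold none of the 55 genes. The 7 classes used were Sertoli-like (2023 control and 4163 *Brca1* vKO cells), stromal-like (855 and 1984), myoid-like (555 and 1413), pericyte-like (47 and 69), endothelial-like (27 and 36), Leydig-like (47 and 112) and germ-like cells (661 and 220). All 8 markers were highest in their own class in both libraries for 5 of the classes. Of the stromal markers, *Pdgfra* and *Mfap4* in both libraries and *Tcf21* in the control were higher in myoid-like cells. Of the myoid markers, *Actg2*, *Des* and *Tpm2* in both libraries and *Tagln* in the *Brca1* vKO library were higher in pericyte-like cells. Levels are raw UMIs summed over the cells of a class and expressed per 1000000 UMIs of that sum (CPM). Value pairs give the control library first and the *Brca1* vKO library second. UMIs count molecules and are not divided by transcript length, so levels were compared for 1 gene between classes. Ratios and shares between genes were read only for how they differed between classes. Intervals are exact 95% intervals for counting error only, and no test between genotypes was possible with 1 mouse each. *Brca1* itself was at 72.8 CPM in control and 45.1 CPM in *Brca1* vKO germ-like cells, a ratio of 0.619 (0.556 to 0.689). In stromal-like cells, which lie outside the germ line, the ratio was 0.529 (0.452 to 0.618). Which UMIs came from the deleted exons cannot be read from gene counts, so the gene was no check of the genotype.

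All 55 genes had at least 1 UMI in the retained cells, and 53 had at least 50. The exceptions were *Col2a1*, the cartilage fibril chain, with 44 UMIs, and *Col10a1*, a chain of hypertrophic cartilage, with 18. The 55 genes together made up 13332 and 13586 CPM in myoid-like cells, 11582 and 11193 CPM in stromal-like cells and 9870 and 7908 CPM in pericyte-like cells. They made up 6571 and 8088 CPM in endothelial-like and 3720 and 4781 CPM in Leydig-like cells. In Sertoli-like cells the sum was 1069 and 1128 CPM and in germ-like cells 522 and 729.8 CPM. Among all collagen and laminin UMIs of the retained cells, 44.5% and 43.1% lay in stromal-like cells and 27.6% and 30.2% in myoid-like cells.

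A gene was given a leading class where the same class was highest in both libraries, at least 2-fold above the next of the 7 classes in each, with at least 10 UMIs there and the interval of the ratio above 1. Of the 49 collagen and laminin genes with enough UMIs, 15 had a leading class, which is 30.6%, against 22.8% of all genes that could be tested. Stromal-like cells led for 5 of them (*Col3a1*, *Col5a3*, *Col9a1*, *Col23a1* and *Lamb3*), where 0.848% of all genes had this leading class. Myoid-like cells led for 5 (*Col4a3*, *Col4a4*, *Col8a2*, *Col26a1* and *Lamc3*; 0.721% of all genes). Pericyte-like cells led for *Col12a1*, *Col19a1* and *Lama5* (1.18%), endothelial-like cells for *Lama4* (3%) and Leydig-like cells for *Col14a1* (1.02%). None of the 49 had Sertoli-like cells (3.93%) or germ-like cells (12.1%) as leading class. The class with the highest level was the same in both libraries for 40 of the 53 genes with 50 UMIs.

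**Figure D1:**
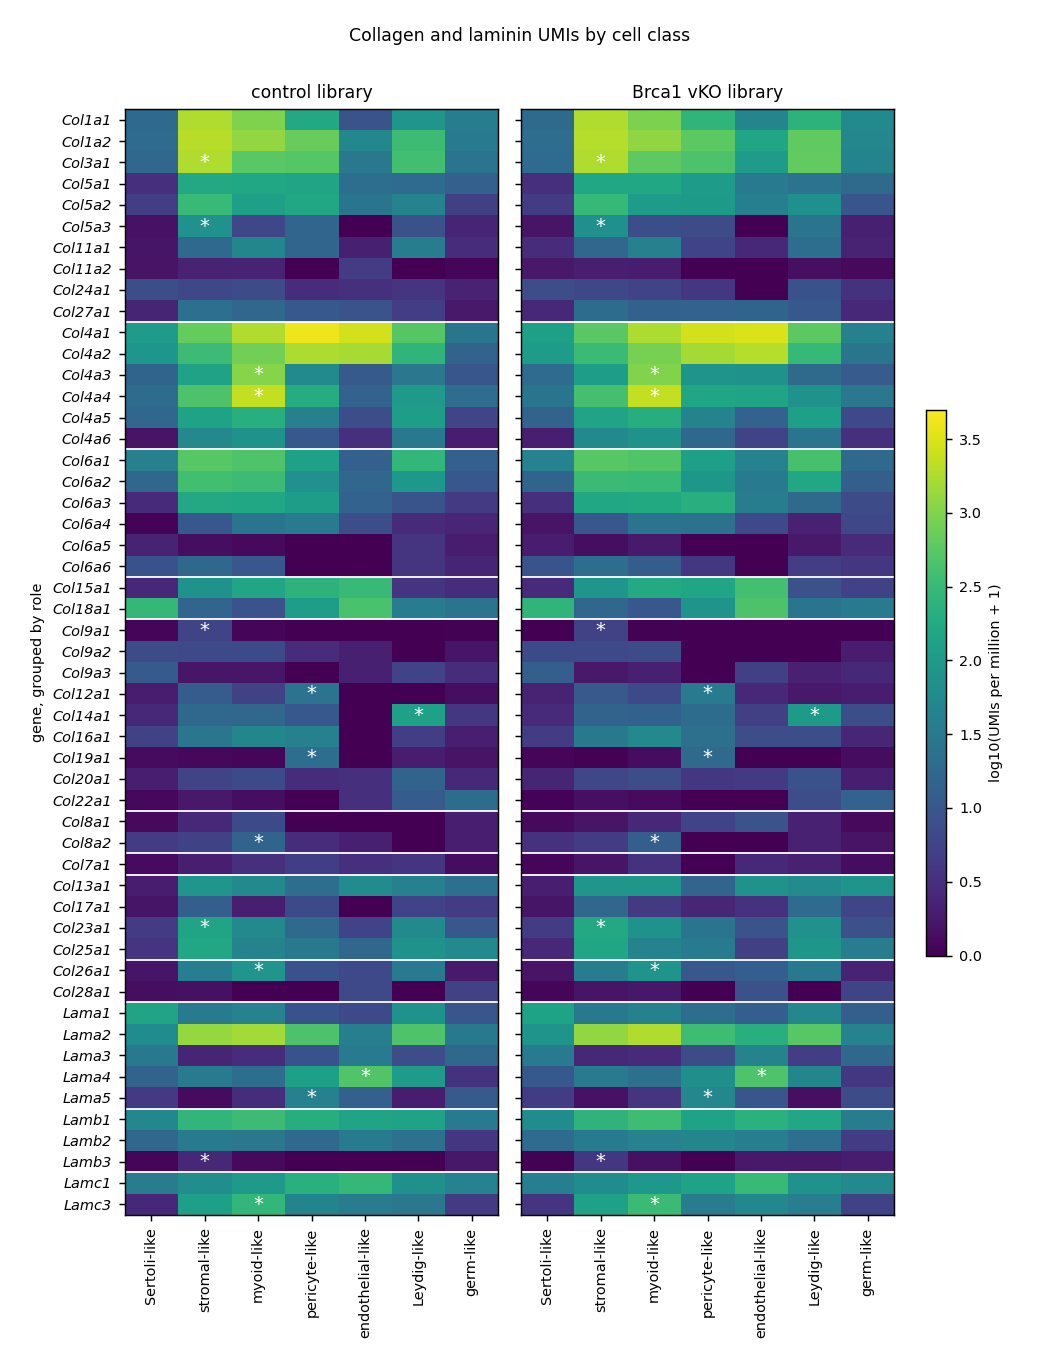
Levels of collagen and laminin genes with at least 50 UMIs in 7 cell classes, for the control library (left) and the *Brca1* vKO library (right), as log10 of CPM plus 1. White lines separate roles and asterisks mark the 15 genes with a leading class. *Col1a1*, *Col1a2* and *Col3a1* are brightest in the stromal-like column, *Col4a3* and *Col4a4* in the myoid-like column, and *Col4a1* and *Col4a2* in the pericyte-like and endothelial-like columns of both libraries.

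The fibrillar collagens of the interstitial space were, as a sum, highest in stromal-like cells. Stromal-like cells held 69.8% and 68.9% of all fibrillar collagen UMIs and myoid-like cells 19% and 20.03%. *Col1a1*, which encodes the major chain of type I collagen, was at 1805 CPM in the control library (95% interval, 1783 to 1827) and 1785 CPM in the *Brca1* vKO library (1769 to 1802) in stromal-like cells. In myoid-like cells *Col1a1* was at 949.9 and 921 CPM, and in Sertoli-like cells at 17.4 and 18.2 CPM. The stromal level was 1.9 (1.85 to 1.95) and 1.94 (1.9 to 1.98) times the myoid level, just short of the 2-fold limit. *Col1a2*, the partner chain of type I collagen, was at 1994 and 1910 CPM in stromal-like and 1264 and 1198 CPM in myoid-like cells, so that both classes expressed both chains of the trimer.

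*Col3a1*, the chain of type III collagen, set stromal-like cells further apart. It was at 1824 CPM in the control library (95% interval, 1802 to 1846) and 1790 CPM in the *Brca1* vKO library (1774 to 1806) in stromal-like cells and at 569.9 and 599.5 CPM in myoid-like cells. The ratio to the next class was 3.2 (3.1 to 3.31) and 2.76 (2.63 to 2.91), the next class being myoid-like in the control and Leydig-like in the *Brca1* vKO library. The number of *Col3a1* UMIs per *Col1a1* UMI was 1.01 (0.993 to 1.03) and 1 (0.99 to 1.02) in stromal-like cells and 0.6 (0.578 to 0.623) and 0.651 (0.634 to 0.669) in myoid-like cells, with intervals that did not overlap. In Leydig-like cells it was higher, at 4.53 (3.61 to 5.74) and 2.66 (2.42 to 2.92). Of the type V collagen genes, whose product sits in the core of type I fibrils, *Col5a2* was at 307 and 301 CPM in stromal-like and 122 and 108 CPM in myoid-like cells. *Col5a1* was nearly level between these classes, with 168 and 166 CPM and 156 and 161 CPM. Myoid-like cells therefore had 0.781 and 0.675 *Col5a2* UMIs per *Col5a1* UMI, against 1.83 and 1.81 in stromal-like cells. *Col5a3*, a further type V gene, was at 72.7 and 70.8 CPM in stromal-like and 5.19 and 6.76 CPM in myoid-like cells.

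The promoter of *Col3a1* is shown because the gene had the most UMIs among those led by stromal-like cells. The 120 bases before its start at chr1:45311418-45311537 (GRCm38.p6, plus strand, from RefSeq) are given 5′ to 3′ with a TATAAA match in capitals.
Col3a1: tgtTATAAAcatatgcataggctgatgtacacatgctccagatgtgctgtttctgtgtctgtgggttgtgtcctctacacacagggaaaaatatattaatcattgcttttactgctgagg
The motifs searched on both strands were CCAAT, the GC box GGGCGG and TATAAA, the sequence of the TATA box. The *Col3a1* match lies at the end of the stretch farthest from the start, and whether it acts as a TATA box was not tested. The shares that follow are for windows longer than the 120 bases shown. Of all 32851 mouse windows of 300 bases in the same table, 13.6% held TATAAA, 37.4% CCAAT and 35.7% GGGCGG. Windows were found for 40 of the 55 genes. Of their 44 windows, 26 (59.1%) held GGGCGG, 14 (31.8%) CCAAT and 5 (11.4%) TATAAA.

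The remaining fibrillar genes were lower. *Col11a1*, a type XI chain of thin fibrils, was highest in myoid-like cells at 48.2 and 39.7 CPM, followed by Leydig-like cells at 34.9 and 20.5 CPM. *Col27a1* was highest in stromal-like cells at 21.7 and 19.2 CPM. *Col24a1* was at 6.8 and 6.42 CPM in Sertoli-like, 5.31 and 5.39 CPM in stromal-like and 6.36 and 4.67 CPM in myoid-like cells. In the *Brca1* vKO library its highest class was Leydig-like, with 19 UMIs and 1.19 (0.713 to 1.88) times the Sertoli-like level. *Col11a2* had 197 UMIs in all.

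Type VI collagen forms beaded filaments near basement membranes, from *Col6a1*, *Col6a2* and a further chain such as *Col6a3*. Its genes were shared between stromal-like and myoid-like cells, and none of the 6 had a leading class. *Col6a1* was at 555 CPM in the control library (95% interval, 543 to 567) and 546 CPM in the *Brca1* vKO library (537 to 555) in stromal-like cells and at 477 and 503 CPM in myoid-like cells. *Col6a2* was at 376 and 333 CPM in stromal-like cells, against 339 and 326 CPM in myoid-like cells. For *Col6a3* these levels were 167 and 163 CPM in stromal-like cells, against 165 and 173 CPM in myoid-like cells. The 2 classes differed by at most 1.16-fold for these 3 chains in the control library.

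*Col6a3* separated the other classes more than *Col6a1* and *Col6a2* did. Stromal-like cells had 0.302 (0.288 to 0.316) and 0.299 (0.289 to 0.309) *Col6a3* UMIs per *Col6a1* UMI. In Sertoli-like cells, where *Col6a1* was at 40.1 and 43 CPM, the ratio was 0.0473 (0.0385 to 0.0577) and 0.0511 (0.0445 to 0.0584), and in Leydig-like cells, with *Col6a1* at 282 and 417 CPM, it was 0.0293 (0.0133 to 0.0564) and 0.0425 (0.0307 to 0.0574). The ratio was higher in pericyte-like cells, at 0.882 (0.613 to 1.27) and 1.77 (1.34 to 2.35), and in endothelial-like cells, at 1.09 (0.441 to 2.73) and 0.796 (0.521 to 1.21). *Col6a4*, an alternative to *Col6a3*, was at 32.4 and 23.9 CPM in pericyte-like cells, its highest class in the control, and at 26.1 and 25.8 CPM in myoid-like cells, its highest class in the *Brca1* vKO library. *Col6a6* was at 16.4 and 20.5 CPM in stromal-like cells. *Col6a5* was at 1.31 and 0.932 CPM in Sertoli-like and 2.76 and 0.805 CPM in Leydig-like cells, and had 0 UMIs in pericyte-like and endothelial-like cells. The Leydig-like level of the control rests on 3 UMIs. In the *Brca1* vKO library germ-like cells were highest for *Col6a5*, with 16 UMIs and 1.93 (1.06 to 3.3) times the Sertoli-like level.

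Fibril-associated collagens coat the surface of fibrils, and these genes were low and divided among classes. *Col14a1* was highest in Leydig-like cells, at 129.5 CPM in the control library (95% interval, 109 to 153) and 101 CPM in the *Brca1* vKO library (89.3 to 115). It was at 16.7 and 14.1 CPM in stromal-like and 15.7 and 13 CPM in myoid-like cells, and the ratio to the next class was 7.76 (6.25 to 9.59) and 5.22 (3 to 9.94). *Col16a1* was highest in myoid-like cells at 49.2 and 53.3 CPM, with 40.0 and 22.4 CPM in pericyte-like cells. *Col12a1* was at 24.8 and 32.9 CPM in pericyte-like and 10.9 and 9.72 CPM in stromal-like cells.

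*Col19a1* and *Col9a1* were rare, and each had 1 class well above the rest. *Col19a1*, a fibril-associated chain of muscle and nerve, was at 21 and 17.9 CPM in pericyte-like cells from 11 and 12 UMIs. Endothelial-like cells had 0 *Col19a1* UMIs, which allows up to 3.4 and 2.39 CPM at 3 UMIs, and Leydig-like cells had 1 and 0 UMIs. In Sertoli-like, stromal-like, myoid-like and germ-like cells *Col19a1* was below 1 CPM. *Col9a1* was at 4.68 and 4.18 CPM in stromal-like cells from 67 and 107 UMIs, while its trimer partners differed in pattern. *Col9a3* was highest in Sertoli-like cells at 10.1 and 12 CPM, and *Col9a2* lay between 5.5 and 6.29 CPM in Sertoli-like, stromal-like and myoid-like cells of both libraries. *Col22a1*, a fibril-associated chain known from tissue junctions, was highest in germ-like cells at 19.6 and 13.5 CPM. *Col20a1* was highest in Leydig-like cells at 14.7 and 7.65 CPM. Calls in pericyte-like cells rest on 47 and 69 cells, and *Col12a1*, *Col19a1* and *Lama5* lost them where cells were assigned one by one from marker UMIs, which named 32 and 28 cells pericyte-like. These calls were also lost where each cell was thinned to 2000 UMIs.

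Of the short-chain and remaining collagens, *Col8a2*, known from the membranes under endothelia, was highest in myoid-like cells at 14.8 and 12.2 CPM, with 4.33 and 3.51 CPM in stromal-like cells. *Col26a1*, first described in testis and ovary, was also highest in myoid-like cells, at 83.8 and 81.8 CPM against 36.7 and 35.4 CPM in stromal-like cells, a ratio of 2.28 (2.03 to 2.57) and 2.31 (2.12 to 2.52). *Col8a1* had 210 UMIs in all, *Col28a1* had 262 and *Col7a1*, which forms anchoring fibrils, had 148.

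By level in CPM, the 6 type IV collagen genes of the basement membrane divided into a vascular pair, a myoid pair and a pair with smaller differences between classes. By number of UMIs, myoid-like cells held 47.7% and 49.7% of all type IV UMIs and stromal-like cells 25.3% and 22.6%. Endothelial-like cells held 3.87% and 3.55% and pericyte-like cells 3.16% and 1.68%. Of *Col4a1* itself, 13938 and 25907 UMIs lay in myoid-like, 2444 and 3824 in endothelial-like and 2130 and 1845 in pericyte-like cells. These genes lie in 3 head-to-head pairs, each transcribed in opposite directions from neighbouring starts. *Col4a1* and *Col4a2* encode the trimer of nearly all basement membranes, whereas *Col4a3*, *Col4a4* and *Col4a5* encode the trimer best known from the kidney glomerulus, and *Col4a6* joins *Col4a5* in a further one. *Col4a1* was highest in pericyte-like cells of the control library and in endothelial-like cells of the *Brca1* vKO library. It was at 4061 CPM in the control library (95% interval, 3890 to 4237) and 2759 CPM in the *Brca1* vKO library (2634 to 2888) in pericyte-like cells and at 2767 CPM in the control library (95% interval, 2659 to 2879) and 3047 CPM in the *Brca1* vKO library (2952 to 3146) in endothelial-like cells. Myoid-like cells followed with 1808 and 1752 CPM, stromal-like cells with 662 and 572 CPM and Leydig-like cells with 524 and 594 CPM. Sertoli-like cells had 107 and 124 CPM and germ-like cells 26.8 and 41.2 CPM.

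*Col4a2* went likewise from 1752 and 1570 CPM in pericyte-like and 1646 and 1920 CPM in endothelial-like cells to 822 and 879.7 CPM in myoid-like and 87.1 and 105 CPM in Sertoli-like cells. The balance of the pair was not the same in all classes. Sertoli-like cells had 1.23 (1.18 to 1.28) and 1.18 (1.15 to 1.21) *Col4a1* UMIs per *Col4a2* UMI, the lowest of the 7 classes in both libraries. Myoid-like cells had 2.2 (2.13 to 2.27) and 1.99 (1.95 to 2.03) and endothelial-like cells 1.68 (1.57 to 1.79) and 1.59 (1.51 to 1.67).

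*Col4a3* and *Col4a4* were highest in myoid-like cells. *Col4a3* was at 1066 CPM in the control library (95% interval, 1043 to 1089) and 997 CPM in the *Brca1* vKO library (981 to 1014) in myoid-like cells, at 132 and 112 CPM in stromal-like cells and at 14.5 and 18.4 CPM in Sertoli-like cells. Its ratio to the next class was 8.05 (7.65 to 8.46) and 8.87 (8.53 to 9.24). *Col4a4* was at 2309 CPM in the control library (95% interval, 2276 to 2344) and 2268 CPM in the *Brca1* vKO library (2243 to 2292) in myoid-like cells, 469 and 407 CPM in stromal-like cells and 19.1 and 26.1 CPM in Sertoli-like cells, with a ratio of 4.93 (4.79 to 5.07) and 5.57 (5.45 to 5.7). After each cell was thinned to 2000 UMIs, 97.3% and 97.2% of myoid-like cells had a *Col4a4* UMI, against 44.9% and 41.1% of stromal-like and 2.7% and 3.58% of Sertoli-like cells. Without thinning the shares were 99.6% and 99.9% of myoid-like cells, with a median of 13538 and 9840 UMIs each, and 81.5% and 78% of stromal-like cells, with 16203 and 12146. In Sertoli-like cells, with median depths of 18689 and 15618 UMIs, they were 21% and 27.4%. Thinning left out at most 20 cells of any of these classes and libraries. Among all type IV UMIs of myoid-like cells, *Col4a4* took 36.7% (36.3 to 37.2) and 36.7% (36.4 to 37) and *Col4a3* 17% and 16.1%, whereas in control endothelial-like cells they took 0.306% and 0.229%. Those were 12 and 9 of 3927 type IV UMIs. The share was larger in *Brca1* vKO endothelial-like cells, with 181 *Col4a4* and 94 *Col4a3* UMIs of 6531.

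The pair on the X chromosome was spread more evenly. *Col4a5* was at 204 and 203 CPM in myoid-like, 135 and 144 CPM in stromal-like and 119 and 123 CPM in Leydig-like cells. *Col4a6* was at 77.7 and 76.6 CPM in myoid-like and 53.9 and 55.4 CPM in stromal-like cells. In Sertoli-like cells *Col4a5* was at 15.4 and 13.9 CPM while *Col4a6* was at 0.59 and 1.04 CPM, so Sertoli-like cells had 26.1 (18.4 to 38.4) and 13.4 (11 to 16.4) *Col4a5* UMIs per *Col4a6* UMI, against 2.51 (2.31 to 2.73) and 2.59 (2.44 to 2.76) in stromal-like and 2.63 (2.39 to 2.9) and 2.66 (2.48 to 2.85) in myoid-like cells. All 3 chains of the glomerular trimer were thus detected together in myoid-like cells, with *Col4a5* the gene of the 3 that differed least between myoid-like and stromal-like cells.

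**Figure D2:**
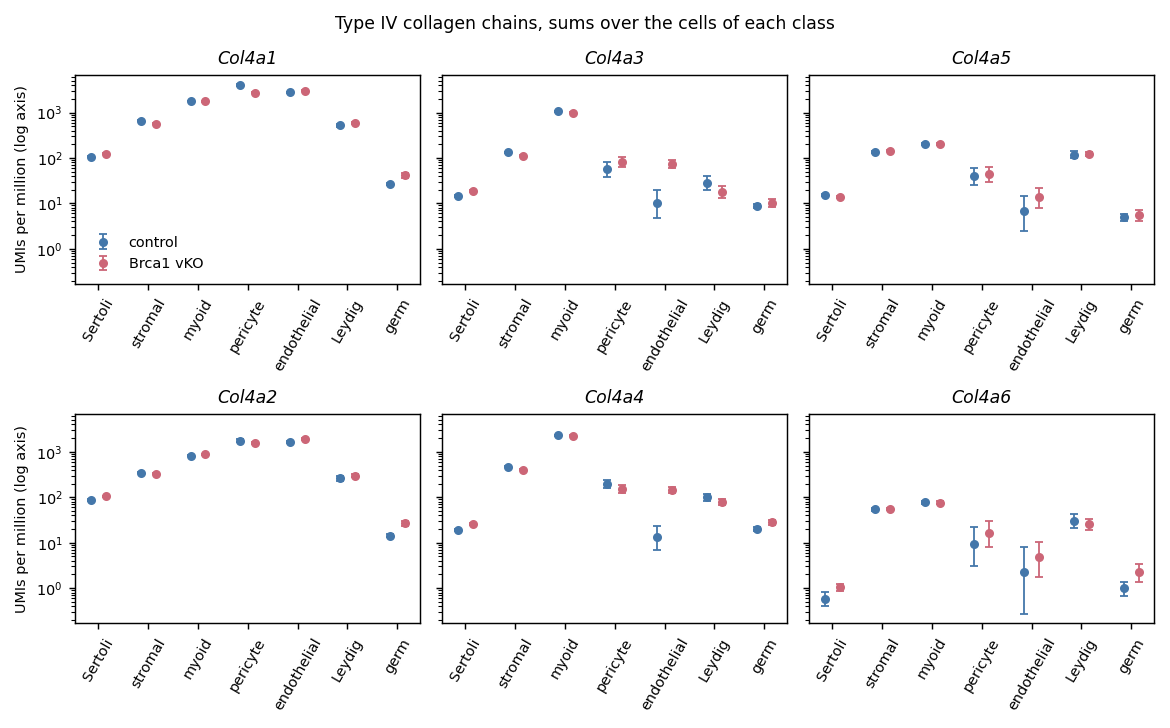
Levels of the 6 type IV collagen genes in CPM on a log axis, by cell class, with the control library in blue and the *Brca1* vKO library in red. Bars are exact 95% Poisson intervals. Each column of panels is a head-to-head gene pair. *Col4a3*, at 1066 and 997 CPM, and *Col4a4*, at 2309 and 2268 CPM, stand out in myoid-like cells, whereas *Col4a1* and *Col4a2* are highest in the vascular classes.

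The sequences where transcription of these pairs begins are shown because the distance between the starts differs among them. Positions are those of GRCm38. *Col4a4* starts at base 82586849 of chromosome 1 on the minus strand and *Col4a3* at base 82586921 on the plus strand, 72 bases apart. *Col4a1* and *Col4a2* start 21 bases apart on chromosome 8 and overlap by their first 22 bases, and *Col4a6* and *Col4a5* start 1309 bases apart on the X chromosome. The first line gives the bases between the starts of *Col4a4* and *Col4a3* (chr1:82586850-82586920, plus strand), the second the overlap of *Col4a1* and *Col4a2* (chr8:11312805-11312826, plus strand). The next lines give the 120 bases before the starts of *Col4a6* (chrX:141474077-141474196, minus strand) and *Col4a5* (chrX:141475265-141475384, plus strand). All are read 5′ to 3′ from RefSeq windows of GRCm38.p6, and capitals mark a match to one of the same 3 motifs.
Col4a4–Col4a3: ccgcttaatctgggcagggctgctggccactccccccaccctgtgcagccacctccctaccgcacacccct
Col4a1–Col4a2: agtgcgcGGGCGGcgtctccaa
Col4a6: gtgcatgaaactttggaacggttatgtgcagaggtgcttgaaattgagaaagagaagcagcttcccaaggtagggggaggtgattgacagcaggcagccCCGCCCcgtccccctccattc
Col4a5: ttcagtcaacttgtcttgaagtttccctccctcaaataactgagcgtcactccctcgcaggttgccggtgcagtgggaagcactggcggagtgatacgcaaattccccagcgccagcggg
The GC box occurred once in the *Col4a1* and *Col4a2* overlap and once, on the opposite strand, before *Col4a6*, and none of the 3 motifs occurred in the other 2 stretches.

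The multiplexins *Col15a1* and *Col18a1* encode collagens with heparan or chondroitin sulphate chains that sit at the edge of basement membranes. Both were highest in endothelial-like cells but lay on different sides of the tubule wall. *Col18a1* was at 431 and 465 CPM in endothelial-like cells and at 290.4 CPM in the control library (95% interval, 286 to 295) and 267 CPM in the *Brca1* vKO library (264 to 269.9) in Sertoli-like cells, whereas stromal-like and myoid-like cells were lower. Stromal-like cells had 15 and 15.8 CPM of *Col18a1*, and myoid-like cells had 7.78 and 9.27 CPM. *Col15a1* was at 307 and 390.5 CPM in endothelial-like, 246 and 156 CPM in pericyte-like and 150.4 and 185 CPM in myoid-like cells, but at 1.64 and 1.77 CPM in Sertoli-like cells. The balance of the pair turned over across the tubule wall, with 19.3 (14.9 to 25.5) and 19.9 (16.8 to 23.8) *Col15a1* UMIs per *Col18a1* UMI in myoid-like cells and 0.00565 (0.00453 to 0.00696) and 0.00662 (0.00569 to 0.00767) in Sertoli-like cells. After thinning, 41.2% and 39.2% of Sertoli-like cells had a *Col18a1* UMI, against 1.63% and 1.84% of myoid-like cells. Without thinning these shares were 95.7% and 94.5% of Sertoli-like cells, against 9.73% and 8.99% of myoid-like cells.

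The laminin alpha chains, which carry the sites that cells bind, divided by class. *Lama2*, the alpha chain of muscle basement membranes, took 95.8% (95.5 to 96.2) and 96.4% (96.2 to 96.6) of the alpha chain UMIs of myoid-like cells and 95% (94.7 to 95.3) and 95% (94.8 to 95.2) of those of stromal-like cells. It was at 1556 CPM in the control library (95% interval, 1529 to 1584) and 1826 CPM in the *Brca1* vKO library (1804 to 1847) in myoid-like cells and at 1282 and 1254 CPM in stromal-like cells. *Lama1*, the alpha chain of early embryonic basement membranes, was highest in Sertoli-like cells at 144 CPM in the control library (95% interval, 140.4 to 147) and 141 CPM in the *Brca1* vKO library (139 to 144). There it took 56.5% (55.7 to 57.3) and 52.7% (52.2 to 53.3) of the alpha chain UMIs, followed by *Lama2* with 24.8% and 30.7% and *Lama3* with 12% and 11.7%. *Lama1* was next highest in Leydig-like cells at 75.3 and 49.9 CPM, and its Sertoli-like ratio to that class was 1.91 (1.53 to 2.4) and 2.83 (2.37 to 3.41), under the 2-fold limit in the control library.

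*Lama4*, an alpha chain of vessel walls, was at 488 CPM in the control library (95% interval, 443 to 536) and 473 CPM in the *Brca1* vKO library (436 to 513) in endothelial-like cells and took 84.5% (81.1 to 87.5) and 63.3% (60.2 to 66.4) of their alpha chain UMIs. Pericyte-like cells were next with 120.1 and 68.8 CPM, and the ratio was 4.06 (3.11 to 5.38) and 6.88 (5.09 to 9.5). *Lama5* was highest in pericyte-like cells at 40.0 and 50.8 CPM, from 21 and 34 UMIs, with 12.5 and 8.77 CPM in endothelial-like and 10.3 and 5.96 CPM in germ-like cells. *Lama3*, an alpha chain of epithelia, was at 34 and 43.8 CPM in endothelial-like cells and close behind at 30.4 and 31.3 CPM in Sertoli-like cells.

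Of the beta chains, *Lamb1* took between 73.6% and 92.3% of beta chain UMIs over the 7 classes and both libraries. It was highest in myoid-like cells at 345 and 360.4 CPM, followed by stromal-like cells at 269.6 and 257 CPM. *Lamb2* was within 16.1 to 49.3 CPM in the 6 somatic classes and at 2.8 and 3.6 CPM in germ-like cells. *Lamb3*, a beta chain of epithelia, had 188 UMIs in the retained cells and 1.61 and 2.93 CPM in stromal-like cells. In the cluster led by neutrophil genes, which is not among the 7 classes and whose control cells had more macrophage than neutrophil marker UMIs, it was at 9.35 and 10.1 CPM. Its stromal-like call was lost under 5 of the alternatives, with the likely doublets removed among them.

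The gamma chains separated stromal-like and myoid-like cells from the rest. *Lamc1*, the common gamma chain, was highest in endothelial-like cells at 291 CPM in the control library (95% interval, 257 to 329) and 308 CPM in the *Brca1* vKO library (278 to 339.9) and took 95.3% and 93.1% of gamma chain UMIs in Sertoli-like and 88.6% and 84.8% in endothelial-like cells. *Lamc3*, the gamma chain with the narrowest distribution in adult tissues, was at 284 CPM in the control library (95% interval, 273 to 296) and 332 CPM in the *Brca1* vKO library (323 to 341) in myoid-like cells. It took 74% (72.4 to 75.6) and 77.8% (76.8 to 78.8) of gamma chain UMIs in myoid-like and 64.7% (62.8 to 66.5) and 67.1% (65.7 to 68.4) in stromal-like cells, but only 4.38% and 6.55% in Sertoli-like cells. Per *Lamc1* UMI, there were 2.87 and 3.53 *Lamc3* UMIs in myoid-like cells and 0.046 and 0.0704 in Sertoli-like cells. Shares within a chain type compare UMIs of different genes, whose capture may differ, so their differences between classes are firmer than the shares themselves.

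**Figure D3:**
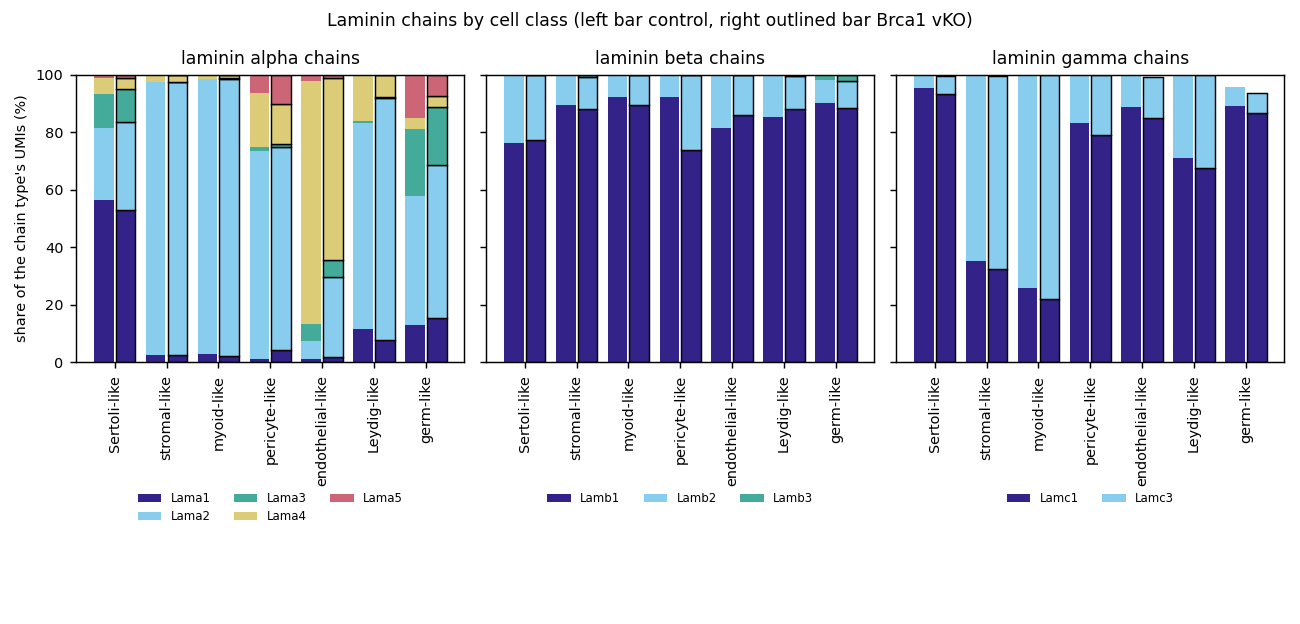
Share of laminin genes in all UMIs of their chain type (percent), with *Lamc1* and *Lamc3* shown for the gamma chains, for the alpha (left), beta (middle) and gamma chains (right), by cell class, with the control library as the left and the *Brca1* vKO library as the right, outlined bar. *Lama1* fills 56.5% and 52.7% of the Sertoli-like bars, *Lama2* 95.8% and 96.4% of the myoid-like bars and *Lama4* 84.5% and 63.3% of the endothelial-like bars, and *Lamc3* exceeds *Lamc1* in stromal-like and myoid-like cells.

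The transmembrane collagens are anchored in the cell surface and shed their outer part. *Col25a1*, a membrane collagen of muscle and brain, was highest in stromal-like cells at 163 and 147 CPM, against 44.1 and 44.7 CPM in myoid-like cells. *Col23a1* was also highest in stromal-like cells, at 144 and 169.9 CPM, against 57.8 and 75.4 CPM in myoid-like cells. *Col13a1*, a membrane collagen of the neuromuscular junction, was at 83.5 and 84 CPM in stromal-like, 56.9 and 90.8 CPM in myoid-like and 60.01 and 77.3 CPM in endothelial-like cells, but at 0.922 and 1.07 CPM in Sertoli-like cells. *Col17a1*, a hemidesmosome collagen, was at 12.1 and 15.7 CPM in stromal-like cells. *Col23a1* lost its leading class under a mitochondrial limit of 5%, with a smaller ratio of 1.18, and *Col5a3* likewise with 1.65.

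Germ-like cells had low levels of the interstitial chains and higher levels of a few others, set against stromal-like cells of the same library. The germ-like level of *Col1a1* was 0.0197 and 0.0327 times the stromal-like level, that of *Col1a2* 0.0159 and 0.0261 times and that of *Col3a1* 0.0134 and 0.0253 times. Stromal markers in germ-like cells were at 145 and 154 CPM, against 8202 and 7816 CPM in stromal-like cells. Likely doublets made up 9.83% and 12.3% of germ-like cells. The part of carried-over RNA in the germ-like levels was not tested. The germ-like level of *Col25a1* was 0.339 and 0.242 times the stromal-like level, that of *Col13a1* 0.257 and 0.982 times and that of *Lamc1* 0.654 and 0.855 times. *Col22a1* was 25.5 and 31.4 times as high in germ-like as in stromal-like cells, and *Lama3* 11.4 and 9.51 times, with *Lama3* 21.7 and 18.7 times as high in Sertoli-like as in stromal-like cells. After thinning, a *Col25a1* UMI was found in 10.9% and 6.85% of germ-like and 0.25% and 0.241% of Sertoli-like cells. Without thinning it was found in 62% and 49.1% of germ-like cells, with median depths of 46296 and 37374 UMIs, and in 2.52% and 2.43% of Sertoli-like cells. *Col13a1*, *Col25a1* and *Col22a1* were spread unevenly over spermatogonial stages. In control germ-like cells with a UMI of *Gfra1*, a stem cell gene, and none of *Kit*, a gene of differentiating spermatogonia, *Col13a1* was at 33.4 CPM, against 4.85 CPM in those with *Kit* and no *Gfra1* UMI. *Col25a1* was at 67.0 CPM and 28.7 CPM, and *Col22a1* in the other order at 13.8 CPM and 25.5 CPM.

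Sertoli-like and stromal-like cells each held a cluster led by cell cycle genes and one that was not, and collagen levels were compared between them. In stromal-like cells, *Col4a3* and *Col8a2* were at least 2-fold higher in the cycling cluster of both libraries, 2 of 41 genes tested against 7.16% of all genes. *Col27a1*, *Col12a1* and *Col17a1* were at least 2-fold lower, 3 of 41 against 1.71% of all genes. *Col4a3* was at 85.4 and 72.8 CPM in the other cluster and at 319 and 298 CPM in the cycling one, ratios of 3.73 (3.41 to 4.09) and 4.09 (3.8 to 4.4). *Col4a4* was at 398 and 343 CPM in the other cluster and 748 and 707 CPM in the cycling one. Myoid markers moved with them, from 501 and 475 CPM to 3138 and 3493 CPM, while stromal markers went from 8891 and 8508 to 5481 and 4579 CPM. The part of myoid cells in the cycling cluster was not tested, and the *Col4a3* and *Col4a4* levels of stromal-like cells given above include it.

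In Sertoli-like cells, *Col1a2*, *Col4a4*, *Col6a3*, *Col23a1* and *Col25a1* were at least 2-fold higher in the cycling cluster of both libraries, 5 of 37 against 3.75% of all genes, and none of the 37 was 2-fold lower (0.0446%). *Col1a2* was at 5.79 and 14.1 CPM in the other cluster and at 42.4 and 28.7 CPM in the cycling one. The stromal marker sum was 27.9 and 48.3 CPM in the other cluster and 150.3 and 99.9 CPM in the cycling one. The myoid marker sum likewise went from 52.7 and 78.5 CPM to 127 and 113 CPM, and the part of both in the result was not tested.

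Between genotypes, the fibrillar collagens of stromal-like cells and the type IV collagens of myoid-like cells differed little. The summed fibrillar collagens were at 6216 and 6064 CPM in stromal-like cells, a *Brca1* vKO to control ratio of 0.976 (0.968 to 0.984). Type IV collagens in myoid-like cells were at 6287 and 6177 CPM, with a ratio of 0.982 (0.972 to 0.993). Over the 7 classes, however, the type IV ratio ranged from 0.757 (0.72 to 0.796) in pericyte-like to 1.51 (1.4 to 1.62) in germ-like cells. The summed laminins had a ratio of 1.14 (1.12 to 1.16) in myoid-like and 0.983 (0.968 to 0.998) in stromal-like cells. A gene with at least 50 UMIs in a class, over both libraries together, was counted where the ratio was at least 2 or at most 0.5 and its interval lay off 1. A gene could thus reach the minimum through 1 library alone. The *Brca1* vKO library had more UMIs in every somatic class, so numbers of higher and lower genes are not on equal terms. Each is set beside the share of all genes under the same rule. In stromal-like cells none of 43 collagen and laminin genes was 2-fold higher, where 0.747% of all genes were, and none was 2-fold lower (0.525%). The ratios in stromal-like cells ranged from 0.811 to 1.82, with a median of 0.980 against 0.992 for all genes. All such ratios compare 1 mouse with 1 mouse, and genotype, animal and library cannot be told apart. Over the 7 classes, 22 ratios were 2-fold higher and 2 were 2-fold lower. Of the 22, 8 lay in endothelial-like, 4 in Leydig-like and 7 in germ-like cells. These totals are no result on their own, and the numbers tested and shares of all genes are given by class. Where cells were assigned one by one from marker UMIs, 4 of the 22 and neither of the 2 passed again, while 21 other ratios passed there.

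In myoid-like cells, 1 of 43 genes was higher (0.998% of all genes) and 1 lower (0.442%). *Col8a1*, a short-chain collagen of vessel walls, was at 5.84 and 1.56 CPM, from 45 and 23 UMIs, a ratio of 0.267 (0.154 to 0.45). *Col17a1* was at 1.04 and 3.25 CPM, from 8 and 48 UMIs, a ratio of 3.13 (1.47 to 7.66). Among the abundant chains, *Lama2* was at 1556 and 1826 CPM, a ratio of 1.17 (1.15 to 1.2), and *Lamc3* had a ratio of 1.17 (1.11 to 1.23).

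In Sertoli-like cells, 2 of 45 genes were higher (0.832%) and none lower (1.01%). *Col11a1* was at 0.627 and 1.93 CPM, from 34 and 197 UMIs, a ratio of 3.08 (2.14 to 4.58). *Col6a4* was at 0.0922 and 0.579 CPM, from 5 and 59 UMIs, a ratio of 6.28 (2.55 to 20.1). Both levels were under 2 CPM. The stromal marker sum of Sertoli-like cells was 72 and 69.7 CPM and the myoid marker sum 79.6 and 92.9 CPM. *Lama1*, *Col18a1* and *Lama3*, basement membrane chains that set Sertoli-like apart from myoid-like cells, had ratios of 0.984 (0.958 to 1.01), 0.918 (0.9 to 0.937) and 1.03 (0.971 to 1.09). The type IV sum of Sertoli-like cells had a ratio of 1.18 (1.16 to 1.21) and their laminin sum one of 1.09 (1.07 to 1.1).

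Pericyte-like cells had no gene past 2-fold among 20 (2.17% of all genes higher and 1.06% lower), but 14 of the 20 were below 1 and the median ratio was 0.828, against 1.01 for all genes. *Col4a1* had a ratio of 0.679 (0.638 to 0.723) and *Col4a2* of 0.896 (0.819 to 0.98), while *Col6a3* had 1.9 (1.39 to 2.61). The pericyte marker sum of these cells was 5260 and 3409 CPM and the myoid marker sum 7033 and 12651 CPM, with 8 of 8 myoid markers higher in the *Brca1* vKO library. The Sertoli marker sum was 236 and 763 CPM, with 7 of 8 higher, and the erythroid sum 427 and 109 CPM. Their part in the result was not tested.

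In endothelial-like cells, 8 of 22 genes were at least 2-fold higher (2.76% of all genes) and none lower (1.01%). Over the 22 genes the median ratio was 1.53, against 1.01 for all genes, and the median depth of the cells was 12758 and 22384 UMIs. The 8 genes were *Col1a1*, *Col1a2*, *Col3a1*, *Col4a3*, *Col4a4*, *Col6a1*, *Col6a3* and *Lama2*, all of them genes whose highest class was stromal-like, myoid-like or, for *Col6a3* of the *Brca1* vKO library, pericyte-like. *Col4a4* was at 13.6 and 144 CPM, from 12 and 181 UMIs, a ratio of 10.6 (5.93 to 20.9). *Lama2* was at 37.4 and 209.6 CPM, a ratio of 5.61 (3.9 to 8.32), and the ratios of the other 6 lay between 2.52 for *Col6a3* and 7.35 for *Col4a3*. The myoid marker sum was 291 and 897 CPM in these cells, with 8 of 8 markers higher in the *Brca1* vKO library, and the stromal marker sum 29.4 and 147 CPM, with 7 of 8 higher. The pericyte marker sum was 519 and 940.4 CPM, with 8 of 8 higher, and the Sertoli marker sum 423 and 677 CPM, with 7 of 8 higher, while the germ marker sum was 190.2 and 15.9 CPM, with 7 of 8 lower. Their part in the result was not tested. *Cnn1*, *Actg2*, *Lum* and *Mfap4* were at 0 in the control library, and *Lum* in both. Without the 1 control and 7 *Brca1* vKO endothelial-like cells in which stromal and myoid markers exceeded 1 in 1000 UMIs, a setting chosen after seeing the data, 2 of 13 genes were higher, against 2.19% of all genes. These were *Col3a1*, with a ratio of 2.05 (1.18 to 3.69), and *Lama3*, with 2.18 (1.28 to 3.85). *Lama2* was then at 35.3 and 63.8 CPM and *Col4a4* at 15.7 and 37 CPM. Over all endothelial-like cells, ratios were 1.1 (1.05 to 1.16) for *Col4a1*, 0.97 (0.855 to 1.1) for *Lama4* and 1.08 (0.947 to 1.23) for *Col18a1*. The multiplexin sum, which includes *Col15a1*, had a ratio of 1.16 (1.05 to 1.28). The laminin sum, which includes *Lama2* and *Lama3*, had a ratio of 1.27 (1.17 to 1.38). *Lama3*, past 2-fold in the reduced set of cells, was also highest in endothelial-like cells.

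Leydig-like cells had 4 of 30 genes higher (2.15%) and 1 lower (1.39%). *Col1a1* was at 84.5 and 244 CPM, a ratio of 2.88 (2.31 to 3.63). *Col5a3*, *Col6a3* and *Col17a1* had ratios of 3.51 (1.68 to 8.47), 2.14 (1.03 to 4.99) and 4.03 (1.61 to 13), from 5 to 9 control UMIs each. The stromal marker sum of these cells was 655 and 1159 CPM, with 8 of 8 markers higher. The Sertoli marker sum was 1592 and 1084 CPM, with 8 of 8 lower, and the myoid marker sum 399 and 233 CPM, with 5 of 8 lower. Their part in the result was not tested. Without the 16 control and 60 *Brca1* vKO cells over the marker limit, none of 20 genes was higher (2.94% of all genes) and *Col11a1* was lower (1.35%). *Lama4*, the gene that was lower, was at 105 and 49.5 CPM, a ratio of 0.473 (0.364 to 0.616), and 0.584 (0.432 to 0.788) without those cells.

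In germ-like cells, the class in which *Vasa*-Cre acts, 7 of 40 genes were higher (3.81%) and none lower (6.67%). The median ratio of the 40 was 1.39, against 0.965 for all genes. *Col13a1* stood apart by its counts, at 21.4 CPM in the control library (95% interval, 19.9 to 23.1) and 82.5 CPM in the *Brca1* vKO library (76.6 to 88.7), from 698 and 734 UMIs, a ratio of 3.85 (3.46 to 4.27). This ratio lay between 3.79 and 4.59 under all alternatives tried. *Col5a2*, *Col4a6*, *Col6a4*, *Col15a1* and *Col14a1* were also higher, all under 9 CPM, with ratios from 2.11 for *Col15a1* to 3.29 for *Col6a4*. Without the 33 control and 14 *Brca1* vKO germ-like cells over the marker limit, 3 of 34 were higher, against 4.01% of all genes, namely *Col13a1* with a ratio of 3.87 (3.47 to 4.32), *Col6a4* with 4.13 (2.6 to 6.58) and *Col4a3* with 2.18 (1.36 to 3.42). After thinning, a *Col13a1* UMI was found in 3.63% and 15.1% of germ-like and 0.0499% and 0.265% of Sertoli-like cells, and without thinning in 48.6% and 85.5% of germ-like and 1.38% and 2.02% of Sertoli-like cells. The neutrophil marker sum of germ-like cells went from 3.19 to 233 CPM, with 8 of 8 markers higher, whereas the stromal sum was 145 and 154 CPM and the myoid sum 117 and 120.5 CPM. *Col13a1* was at 11.8 CPM in the *Brca1* vKO cluster led by neutrophil genes. The part of such cells in the germ-like ratios was not tested.

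Among the germ-like cells, the mix of stages differed between the libraries, with 271 and 94 cells that had a *Gfra1* and no *Kit* UMI and 184 and 4 that had a *Kit* and no *Gfra1* UMI. The germ-like class leaves out a cluster of 419 and 55 cells, with medians of 3565 and 3463 UMIs. Its marker score was highest for germ cells, but haemoglobin genes led it, so it was not named. Within the *Gfra1* cells *Col13a1* was at 33.4 and 88.6 CPM, a ratio of 2.65 (2.28 to 3.09). *Col25a1* went the other way there, at 67 and 38.3 CPM and a ratio of 0.572 (0.472 to 0.689), and *Lama5* had a ratio of 0.409 (0.217 to 0.713). *Lamc1*, *Lamb1* and *Col18a1* had ratios of 1.15 (0.969 to 1.35), 1.05 (0.854 to 1.29) and 1.07 (0.867 to 1.31). The 4 *Brca1* vKO cells with *Kit* and no *Gfra1* UMI were too few for such ratios.

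**Figure D4:**
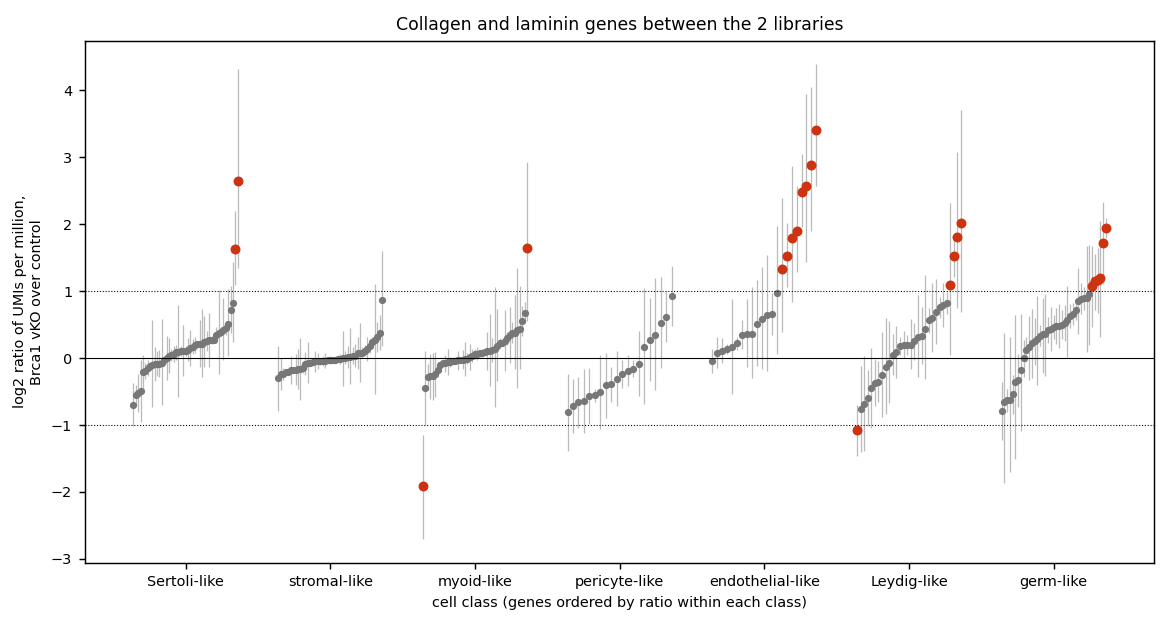
Log2 ratio of CPM, *Brca1* vKO over control, of collagen and laminin genes with at least 50 UMIs in a class over both libraries together, ordered by ratio within the class, with exact 95% intervals in grey. Red points passed 2-fold with an interval off 1, and dotted lines mark 2-fold. Most ratios of stromal-like and myoid-like cells lie near 0 on the log2 axis, and most red points lie in endothelial-like, Leydig-like and germ-like cells.

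The genes that build, bind and remodel these chains were read from 4 lists. Of 27 collagen assembly enzymes, 5 of 23 tested had a leading class, against 22.8% of all genes. The 3 with the highest level were *Serpinh1*, the collagen chaperone, at 916 and 927 CPM in myoid-like cells, *Ppib*, a prolyl isomerase, at 815 and 858 CPM in the highest class of each library, and *Pcolce*, which helps to cleave procollagen, at 339 and 409 CPM in Leydig-like cells. *P3h4* led in Sertoli-like, *P3h2* and *Loxl2* in pericyte-like and *Pxdn* and *Colgalt2* in endothelial-like cells. *Pxdn*, which cross-links type IV collagen, was at 199 and 189 CPM there.

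Of 15 collagen and laminin receptors, 5 of 10 tested had a leading class. *Dag1*, the dystroglycan that binds laminin, was at 400.0 and 447 CPM in Sertoli-like cells, and *Ddr1*, a collagen receptor kinase, at 112 and 124 CPM in the same class. *Itga6*, a laminin-binding integrin chain, was at 524 and 403 CPM in endothelial-like cells, while *Itgb1*, the common beta chain, was highest in pericyte-like cells at 1009 and 972 CPM, as was *Itga1* at 616 and 475 CPM. Of 24 further matrix proteins, 6 of 23 tested had a leading class. *Sparc* was highest in endothelial-like cells at 4688 and 5054 CPM, *Bgn* in myoid-like cells at 891 and 853 CPM and *Eln* in pericyte-like cells at 376 and 1527 CPM. Of 19 matrix proteases and inhibitors, 4 of 16 tested had a leading class, and the 3 highest were *Adamts5* in stromal-like cells at 1158 and 1249 CPM, *Adamts9* in endothelial-like cells at 929.6 and 890.1 CPM and *Timp3* in myoid-like cells at 509 and 561 CPM.

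Between genotypes, no assembly enzyme was past 2-fold in stromal-like, myoid-like or pericyte-like cells. *P3h2* was higher in Sertoli-like cells, 1 of 24 tested, against 0.832% of all genes. *Loxl2* was higher in endothelial-like cells (1 of 14, against 2.76% of all genes) and lower in Leydig-like cells (1 of 18, against 1.39%). In germ-like cells 4 of 22 assembly enzymes were lower (*P3h3*, *Adamts14*, *Pcolce2* and *Loxl2*), where 6.67% of all genes were lower. Of the receptors, *Itga6* was higher in stromal-like cells (1 of 10, against 0.747% of all genes) and *Itga1* in germ-like cells (1 of 11, against 3.81%). *Itga11* was lower in myoid-like cells (1 of 10, against 0.442%) and *Bcam* in germ-like cells (1 of 11, against 6.67%). In endothelial-like cells 5 of 13 further matrix proteins were higher (*Fbln2*, *Eln*, *Fbn1*, *Fbn2* and *Postn*), against 2.76% of all genes, and none was lower (1.01%). Myoid and stromal markers were higher in these cells as well, and their part was not tested. *Eln* and *Vcan* were higher in pericyte-like cells (2 of 12, against 2.17% of all genes), and *Ntn4* was lower in myoid-like cells (1 of 21, against 0.442%). In germ-like cells *Nid1* and *Ntn4* were higher (2 of 22, against 3.81% of all genes) and *Npnt*, *Egfl6* and *Fras1* lower (3 of 22, against 6.67%). Among the proteases and inhibitors, *Adamts5* was higher in endothelial-like cells (1 of 12, against 2.76% of all genes). *Mmp9* and *Timp1* were higher in germ-like cells (2 of 16, against 3.81%). *Mmp9* had germ-like cells as its leading class, at 9.06 and 19.6 CPM. Neutrophil markers were also higher in germ-like cells of the *Brca1* vKO library, and their part in these ratios was not tested.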

How the data were processed

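Single cells from testes of 1 control and 1 *Brca1* vKO mouse at PD7 were sequenced in 1 library each. The authors aligned the reads to mm10 with Cell Ranger 6.0.2 and deposited raw UMI counts per gene and cell barcode, before their cell filters in Seurat 4.3.0.1 under R 4.2.3. The deposited counts summed to 120568700 UMIs over 5812 control barcodes and 165062097 over 9456 *Brca1* vKO barcodes. The library kit's read end is not given in the sources used here.

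Barcodes with at least 750 genes and at most 10% mitochondrial UMIs were retained. Counts were normalised in Seurat 5.3.0 under R 4.3.3, reduced to 2000 variable genes without the 55 collagen and laminin genes and to 20 components (irlba 2.3.5.1), corrected between libraries by a Harmony-style step written for this purpose, and clustered from 20 neighbours (RANN 2.6.2) at a resolution of 0.25, which gave 14 clusters. A cluster was named only where at least 3 of 8 markers were detected and its leading genes did not go against the name. The 10 named or neutrophil-led clusters gave the classes used here, and clusters led by haemoglobin genes or without a name were left out of the 7 classes. Likely doublets (161 control and 249 *Brca1* vKO cells, by Scrublet in scanpy 1.11.5 with Python 3.11.15) were kept, and their removal was an alternative.

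UMIs were summed per library and class. Exact 95% intervals (Poisson for sums, binomial for shares, conditional for ratios; scipy 1.17.1) cover counting error only, and 0 UMIs were read as under 3. Genes needed 50 UMIs in both libraries together. With 1 library per genotype no test was possible, so calls were made by size, at 2-fold with an interval off 1. Values were printed for the 4 genes of each role with the highest level, for type IV pairs, for laminins with a leading class and for genes past 2-fold between genotypes, and for the 3 highest genes of each further list. The other genes named from the further lists were chosen after their values were seen, as were the splits by *Gfra1* and *Kit* and by cycling clusters. The collagen and laminin genes and all lists were chosen with earlier results of these data known. The values of 1 of the 55 genes are not reported here, while counts and sums include it. The scripts were tested on simulated data. Gene positions came from GENCODE M21 on GRCm38 and promoter windows from RefSeq GRCm38.p6. Alternatives changed the mitochondrial limit, gene minimum, batch correction, clustering settings, doublets, cell assignment, depth per cell, scaling (TMM in edgeR 4.0.16, on the counts) and fold limits.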

Additional observations from a re-analysis of the deposited data

Results flagged for a closer look

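The genotype ratio of some genes pointed in opposite directions in different cell classes, with intervals that lay above 1 in one class and below 1 in the other. With 1 library per genotype none of these differences was tested. In endothelial-like cells, whose myoid and stromal markers also differed between the libraries, *Col1a1* had a *Brca1* vKO to control ratio of 5.932, against 0.9694 in myoid-like cells. That of *Col1a2* was 2.89, against 0.8476 in pericyte-like cells, and that of *Lama2* was 5.609, against 0.7615 in pericyte-like cells. That of *Col3a1* was 3.736 and that of *Col4a3* was 7.351, against 0.9813 and 0.8485 in stromal-like cells. That of *Col4a4* was 10.62, against 0.7761 in Leydig-like cells.

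In Leydig-like cells *Col1a1* had a ratio of 2.882, against 0.9694 in myoid-like cells. *Col11a1* had a ratio of 3.084 in Sertoli-like cells and 0.5882 in Leydig-like cells. In germ-like cells *Col5a2* had a ratio of 2.213 and *Col15a1* of 2.107, against 0.6442 and 0.6323 in pericyte-like cells, and *Col14a1* had a ratio of 2.24, against 0.7833 in Leydig-like cells.

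The cluster led by neutrophil genes, with 51 control and 142 *Brca1* vKO cells, entered none of the comparisons. Its neutrophil markers summed to 1439 CPM in the control and 49941 CPM in the *Brca1* vKO library, and its macrophage markers to 9873 and 7035 CPM, so its control cells had more macrophage than neutrophil marker UMIs. *Lamb3* was at 9.352 CPM there in the control and 10.09 CPM in the *Brca1* vKO library, above its level in each of the 7 classes.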

How the results depend on the processing

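No paired analysis was possible because each genotype had 1 library. The 15 genes with a leading class became between 13 and 22 under the alternatives, apart from 9 with cells thinned to 2000 UMIs, of which 8 were among the 15, and 8 at a leading fold of 3. Thinning lost the calls of *Col9a1*, *Col12a1*, *Col19a1*, *Col8a2*, *Col23a1*, *Lama5* and *Lamb3*. Assignment of cells one by one lost those of *Col12a1*, *Col19a1*, *Col26a1* and *Lama5*, and TMM scaling that of *Col12a1*. The 22 genotype ratios past 2-fold upwards became 4 with thinning, 43 at a fold of 1.5 and 8 without the cells rich in stromal and myoid marker UMIs. Of the 22 themselves, 1 was kept with thinning and 6 without those marker-rich cells. The 2 past 2-fold downwards became 1 at a mitochondrial limit of 5%, 0 with thinning, 6 at a minimum of 10 UMIs and 11 at a fold of 1.5. The ratio of the fibrillar sum in stromal-like cells, 0.9756, became 0.9528 with cells assigned one by one, 0.9914 with thinning and 0.9884 with TMM scaling. The cause of these shifts was not tested, beyond the fewer UMIs or other limits that each setting brings.

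Single genes turned in direction as follows. *Col6a3* in Leydig-like cells had a genotype ratio of 0.7847 at the mitochondrial limit of 5%, 0 with thinning and 0.9978 without cells rich in marker UMIs. With thinning, *Col1a2* in endothelial-like cells was at 0.7353, *Col14a1* in germ-like cells at 0.3354, and *Lamb3* in stromal-like cells at 0.9741 times the next class. With cells assigned one by one, pericyte-like cells were at 0 times the next class for *Col19a1* and at 0.2961 times for *Lama5*. Of 251 values of single leading genes under the alternatives, 228 kept direction and call and 20 kept direction only. Of 348 genotype ratios, 279 kept both and 64 direction only. With cells assigned one by one 4 of the 22 higher calls were kept and 21 new calls of either direction appeared, with doublets removed 16, and at the mitochondrial limit of 5% 14. TMM scaling shifted the median of all genes most in endothelial-like cells, to 0.11 on the log2 scale. Leaving out the cells rich in marker UMIs, leaving out pericyte-like cells (17 leading) and summing both libraries (20) were chosen after seeing the data. Counts in the 27 to 69 pericyte-like or endothelial-like cells per library limit what could be detected there.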

Other observations

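Among the matrix genes that are no collagen or laminin, those with a leading class marked nearly every somatic class, and they were named after their values were seen. *Hspg2*, the basement membrane proteoglycan perlecan, was highest in endothelial-like cells at 555 and 804 CPM, as was *Npnt*, a ligand of integrins in basement membranes, at 34 and 29.5 CPM. *Ntn4*, a netrin that binds laminin gamma chains, was highest in Sertoli-like cells at 75.1 and 72.9 CPM. *Frem1* was highest in myoid-like cells at 133 and 129 CPM and its relative *Frem2* in pericyte-like cells at 55.3 and 49.3 CPM. *Egfl6* was highest in Leydig-like cells at 30.3 and 27.4 CPM. Of the receptors, *Itga2*, a collagen-binding integrin chain, was highest in endothelial-like cells at 112 and 77.3 CPM and *Lair1* in Sertoli-like cells at 1.33 and 1.52 CPM.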
